A study of Saccharomyces cerevisiae with 4 samples.

Results

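The 41 genes described here act on tRNA after it has been transcribed. They encode tRNA-modifying enzymes, the tRNA splicing machinery, a tRNA exporter and the enzyme that adds the CCA end in budding yeast. They were taken by systematic name from a list set by function, and are 41 of the 6706 reading frames in the abundance tables. None lies on chromosome III. The study compared the RNA of a wild-type strain with that of a strain labelled as deleted for tRNA genes (tDNAs) of chromosome III. That strain is called tDNA-less here, and the comparison asks how the genes that process tRNA were expressed in it. Both strains are MATa and labelled W-303, and were grown in rich medium (YPD) to early log phase without treatment, with 2 biological replicates each.

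The wild type, JRY2334, carries ade2-1 and his3-11,15 together with a mutant leu2 allele and trp1-1, and also ura3-1 and can1-100. The tDNA-less strain, JKY690, shares ade2-1, trp1-1 and ura3-1 with it. Its label lists deletions of t0, t1 and t3 to t7, the joint replacement of t8 and t9 by LEU2, and an element written T1+T7::HIS3, so the strains also differ at LEU2 and HIS3. The can1-100 allele is given in the label of the wild type only. The label of JKY690 does not say which tRNA gene each number stands for, and it names no t2. Whether every tRNA gene annotated on chromosome III was removed, SUP61 among them, cannot be read from it. Only these 2 strains were compared, so the tDNA deletions, the LEU2 and HIS3 genes and any other difference between the strains cannot be told apart.

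A nuclear tRNA precursor is trimmed at both ends, receives a CCA tail that yeast tRNA genes do not encode, and is exported from the nucleus, in part by the exportin Los1. Precursors with an intron are cut in yeast by the Sen endonuclease on the outer surface of mitochondria, joined by the ligase Trl1 and freed of a leftover phosphate by Tpt1. Base and ribose modifications are added along the way, many of them by methyltransferases named Trm, and they affect the folding, stability and decoding of tRNA.

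Substrates of these enzymes are illustrated by 3 tRNA genes annotated on chromosome III. The reference annotation places 10 tRNA genes there, among 275 in the nuclear genome, and 2 of the 10 contain an intron, against 60 of the 275. The sequences below are of the RefSeq assembly R64, 5′ to 3′ on the gene's strand, with the intron in capitals. SUP53, a leucine tRNA gene (chrIII:90859-90972, plus strand), and SUP61, a serine tRNA gene (chrIII:227942-228042, plus strand), are shown because they need the splicing enzymes, and a tRNA gene without intron annotated as tRNA-Glu (YNCC0001C, chrIII:82462-82533, minus strand) stands beside them.
SUP53: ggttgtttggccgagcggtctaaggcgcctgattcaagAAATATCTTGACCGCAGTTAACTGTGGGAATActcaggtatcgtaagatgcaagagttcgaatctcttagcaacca
SUP61: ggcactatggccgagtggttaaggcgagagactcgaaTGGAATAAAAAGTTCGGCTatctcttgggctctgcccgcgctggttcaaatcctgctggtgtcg
YNCC0001C: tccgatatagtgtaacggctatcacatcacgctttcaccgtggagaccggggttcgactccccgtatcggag
The intron of SUP53 is 32 bases long and that of SUP61 19 bases, and each begins 1 base after the anticodon, as is usual in yeast, which read by that position is CAA in SUP53 and CGA in SUP61. The spliced letters of SUP61 occur in 1 nuclear tRNA gene of the reference, those of SUP53 in 10 and those of YNCC0001C in 13. The tables list reading frames and no tRNA, so the level of these tRNAs is not analysed here.

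A library held between 12.5 M and 19.8 M estimated counts. From 30.6% to 45.1% of them fell on 4 reading frames, those of YSH1, ATG7, LTO1 and MSK1, and the share was higher in replicate 1 than in replicate 2 of both strains. It was also higher in the tDNA-less strain than in wild type, at 45.1% against 39.6% in replicate 1 and 36.1% against 30.6% in replicate 2. Levels are given as CPM, counts divided by the scaled size of the library. The strain labels were checked by HIS3, which averaged 10.5 ± 2.76 CPM (SD, n = 2) in wild type and 433 ± 41.1 CPM in the tDNA-less strain. LEU2, which the label of the tDNA-less strain gives as inserted, averaged 56.9 ± 3.66 CPM there against 123 ± 17.8 CPM in wild type, which was lower and not higher (edgeR, adjusted p = 0.000915). The counts do not separate a mutant leu2 allele from an inserted gene. The mating type was checked by STE2, the pheromone receptor of a cells, at 141 TPM in wild type and 123 TPM in the tDNA-less strain (TPM is a level per length). STE3, the receptor of alpha cells, averaged 0.799 and 0.625 TPM. The other alpha-cell genes listed were MF(ALPHA)1 at 0.911 and 0.760 TPM, MF(ALPHA)2 at 11.3 and 10.5 TPM and SAG1 at 9.18 and 8.36 TPM. Transcripts of SAG1 and MF(ALPHA)2 were thus detected in both strains. Of the other a-cell genes, STE6 had 31.4 and 30.9 TPM and BAR1 75.6 and 67.3 TPM, and MFA1 and MFA2 were higher. TPM is not corrected for the share of the 4 dominant reading frames.

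As a group the tRNA maturation genes had slightly lower values in the tDNA-less strain, and 1 of them, TRM11, passed the test. All 41 passed the filter on low counts, with between 85 and 3777 estimated counts in a library. A gene was called at an adjusted p under 0.05 in a quasi-likelihood test by edgeR, adjusted after Benjamini and Hochberg across all 6205 reading frames tested. By this rule 1 member fell, 0 rose and 40 did not pass, against 0.693% of all reading frames called lower and 0.806% called higher, or 1.5% in either direction. With an offset for the GC content of each reading frame, 5 members fell (TRM11, TRM10, GCD10, DUS1 and SMM1). Calls in either direction over all reading frames rose too, from 93 without the offset to 249 with it. The fit with the offset tested fewer than 6205 reading frames, only those with a coding sequence in the reference annotation. On the log2(TPM + 1) scale limma called 0 members, and over all reading frames 17 higher and 35 lower, where edgeR had called 50 higher and 43 lower. Before adjustment, 8 of the 41 members had a p under 0.05, all 8 of them lower, and 5.64% of all reading frames were lower at that level.

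The log2 fold change was negative in 35 members and positive in 6, with a median of -0.13, while over all reading frames tested the median was 0.00 and 49.4% were negative. The count of negative members was between 31 and 39 over the 15 other settings tried. In 25 members both tDNA-less libraries lay below both wild-type libraries, in 4 they lay above, and in 12 the libraries overlapped, against 20.8% of all reading frames below and 22% above. Leaving aside the 4 dominant reading frames, the summed counts of the members made up 0.431% and 0.412% of each wild-type library and 0.379% and 0.372% of each tDNA-less library. For 37 of the 41 members the 95% interval of the fold change lay within 1.5-fold in both directions, and the 4 exceptions were TRM11, TAD1, TAD2 and SEN15. In RNA from a whole culture, a lower level in every cell and a loss in part of the cells cannot be told apart.

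**Figure D1:**
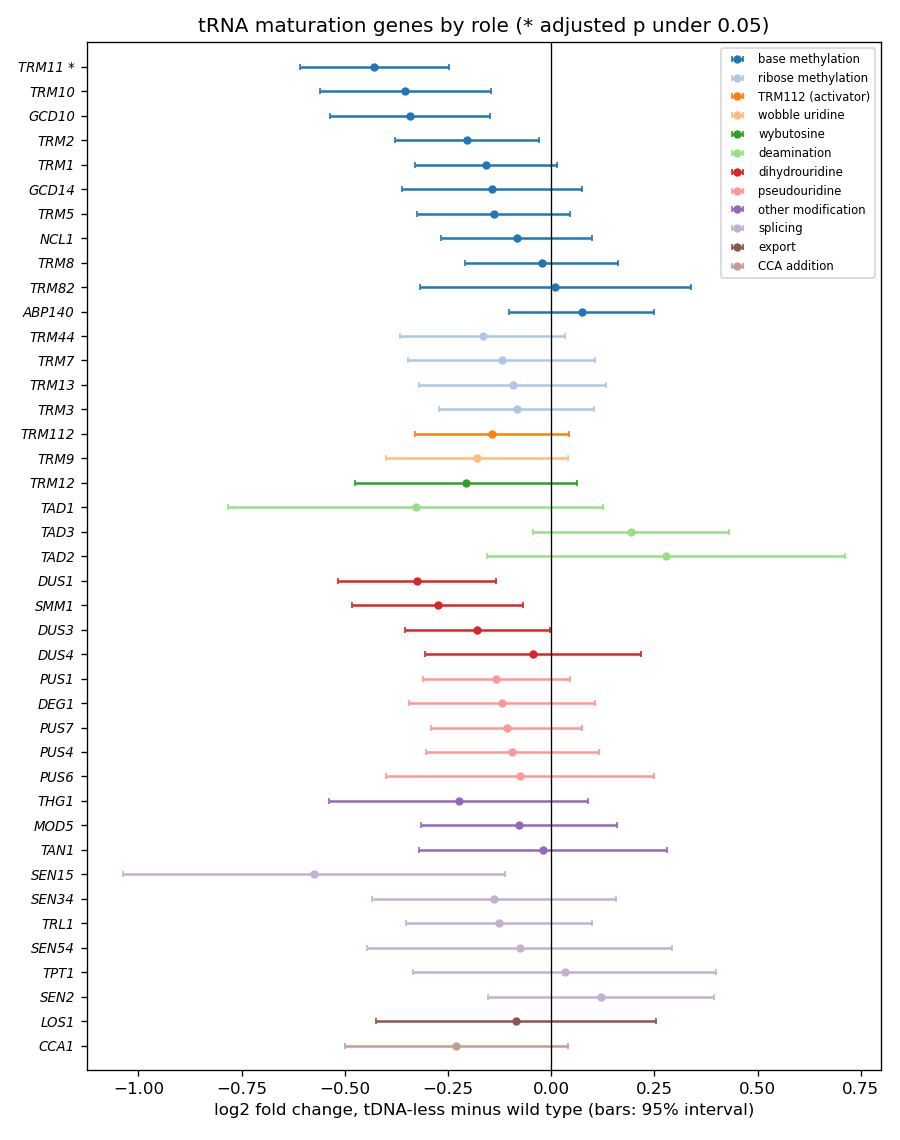
Log2 fold change (tDNA-less minus wild type, horizontal axis) of the 41 tRNA maturation genes, grouped and coloured by role, from edgeR on 2 libraries per strain. Points are estimates and bars 95% intervals. TRM11, the 1 gene with an asterisk, passed the test at an adjusted p of 0.0318, and 35 of the 41 points lie below 0.

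TRM11 (YOL124C, chrXV:85456-86757, minus strand, a single exon) encodes the catalytic subunit of a methyltransferase that modifies a guanosine at the start of the D stem and needs Trm112 as its partner. Its level was 85.1 and 81.7 CPM in the wild-type libraries and 62.3 and 61.6 CPM in the tDNA-less libraries. Both tDNA-less values lay below both wild-type values, and the libraries of each strain differed by far less than the strains. It fell 1.35-fold, and its log2 fold change was -0.43 ± 0.08 (SE), with an adjusted p of 0.0318 in edgeR. Leaving out any 1 of the 4 libraries kept the log2 fold change between -0.46 and -0.41 but ended the call, with edgeR's adjusted p at 0.0902 and 0.0624 when a wild-type library was left out (replicate 1, then 2) and at 0.352 and 0.396 when a tDNA-less one was. Limma on the log2(TPM + 1) scale also ended it (adjusted p = 0.177), and over all 15 other settings the adjusted p ranged from 2.99e-06 to 0.396. With 2 libraries per strain a permutation test of 1 gene cannot give a two-sided p below 0.3333, so each p comes from the fitted model.

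TRM112 (YNR046W) encodes a small protein that activates the methyltransferases Trm9 and Trm11 in tRNA, Bud23 in ribosomal RNA and Mtq2 in a release factor of translation. Per length it was the most abundant of the 41 transcripts, at 335 ± 5.72 TPM in wild type (SD, n = 2), where TRM9 stood at 56.1 ± 0.526 TPM and TRM11 at 53.0 ± 1.16 TPM. In counts, TRM112 was measured at 114 and 106 CPM in wild type and at 97.0 and 102 CPM in the tDNA-less strain. The groups did not overlap, yet the change did not pass (log2 fold change -0.14 ± 0.08, edgeR adjusted p = 0.543). TRM9, which completes the side chain of modified wobble uridines, gave 53.7 and 50.8 CPM against 43.3 and 48.7 CPM and did not pass either (-0.18 ± 0.10, edgeR adjusted p = 0.52). Of the partners outside tRNA, BUD23 had a log2 fold change of -0.24 and MTQ2 one of 0.04, and neither passed. By its systematic name, YCR047C, BUD23 lies on chromosome III, unlike the members.

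Among the other base methyltransferases the next lowest values were those of TRM10 and GCD10. TRM10 (YOL093W, chrXV:142815-143696), which methylates a guanosine between the acceptor and D stems, was at 64.1 and 58.0 CPM in wild type and 48.4 and 47.1 CPM in the tDNA-less strain. GCD10 (YNL062C, chrXIV:508776-510212) had 79.0 and 74.9 CPM in wild type and 63.5 and 58.0 CPM in the tDNA-less strain. In both genes the strains did not overlap, but neither passed at the edgeR settings used for the calls. The log2 fold change was -0.35 ± 0.09 for TRM10 and -0.34 ± 0.09 for GCD10 (edgeR, adjusted p = 0.13 and 0.121). Both genes passed with the replicate number as a block in the model, though the labels do not say that a number marks a shared batch. With an offset for GC content both passed in edgeR, at adjusted p = 0.0359 and 0.0125, and over the 15 other settings the adjusted p ran from 0.0013 to 0.677 for TRM10 and from 0.000307 to 0.688 for GCD10. Gcd10 is the non-catalytic subunit, and Gcd14 the catalytic one, of the enzyme that makes methyladenosine in the T loop, a mark that stabilises the initiator tRNA. GCD14 stood at 86.2 CPM in wild-type replicate 1, while the other 3 libraries lay between 70.7 and 73.1 CPM. Its fold change was -0.14 ± 0.10 (edgeR, adjusted p = 0.614), and the 2 subunits had 43.6 ± 0.605 and 58.2 ± 3.88 TPM in wild type.

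TRM2, the methyltransferase that makes ribothymidine in the T loop, was at 111 and 108 CPM in wild type and 95.3 and 94.8 CPM in the tDNA-less strain, and its value of -0.20 on the log2 scale did not pass. The 11 base methyltransferase genes ranged from TRM11 to ABP140, which encodes both an actin-binding and a cytosine-methylating domain and had a log2 fold change of 0.07. Trm8 and Trm82 form the enzyme that makes methylguanosine in the variable loop. TRM8 was nearly level, at 75.4 and 70.6 CPM in wild type and 72.6 and 70.9 CPM in the tDNA-less strain. TRM82 was at 82.0 and 59.4 CPM in wild type and 76.9 and 64.7 CPM in the tDNA-less strain, so that replicate 1 exceeded replicate 2 in both strains and the groups overlapped. The values for TRM1 (-0.16), TRM5 (-0.14) and NCL1 (-0.08) also did not pass; these enzymes methylate the junction below the D arm, the base beside the anticodon and several cytosines.

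The 4 genes for ribose methylation, TRM3, TRM7, TRM13 and TRM44, had log2 fold changes between -0.17 and -0.08 and none passed. TRM7, whose product methylates riboses of the anticodon loop, had 38.1 and 41.8 CPM in wild type and 36.0 and 37.8 CPM in the tDNA-less strain. TRM12, of the pathway to the anticodon-loop base wybutosine in phenylalanine tRNA, had a fold change of -0.21 (edgeR, adjusted p = 0.548). TRM12 and THG1 were the 2 members within 1 kb of a tRNA gene in the reference, at 982 and 202 bases, and these tRNA genes are on chromosomes XIII and VII.

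The dihydrouridine synthases, which reduce uridines mainly in the D loop, had the lowest median of the groups with 3 or more genes. The 4 genes DUS1, SMM1 (also called DUS2), DUS3 and DUS4 had a median log2 fold change of -0.23, and none passed at the edgeR settings used for the calls. DUS1 (YML080W, chrXIII:108806-110077) gave 61.7 and 62.9 CPM in wild type and 50.7 and 48.9 CPM in the tDNA-less strain. Its strains were well separated, at -0.32 ± 0.09 on the log2 scale (edgeR, adjusted p = 0.131). DUS1 passed with the replicate number as a block in the model, though the labels do not say that a number marks a shared batch. SMM1 was at 84.8 and 98.0 CPM in wild type and 76.7 and 74.8 CPM in the tDNA-less strain (-0.28 ± 0.09, edgeR adjusted p = 0.248), and the gap between its wild-type libraries was wider than that between the nearest libraries of the 2 strains. With the GC offset DUS1 and SMM1 passed in edgeR, at adjusted p = 0.0303 and 0.0396, and over the 15 other settings the adjusted p ran from 0.0038 to 0.677 for DUS1 and from 0.00276 to 0.76 for SMM1. DUS3 had a value of -0.18, and DUS4, whose libraries overlapped, one of -0.04.

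The 5 pseudouridine synthase genes lay close together. PUS1, DEG1 (also called PUS3), PUS4, PUS6 and PUS7 had log2 fold changes from -0.13 to -0.08, and none passed. In 4 of them both tDNA-less libraries lay below both wild-type libraries, as in 20.8% of all reading frames. DEG1, whose product acts in the anticodon arm, was at 33.1 and 33.0 CPM in wild type and 30.4 and 30.4 CPM in the tDNA-less strain. Of the other modification genes, MOD5, the isopentenyl transferase, had a value of -0.08, TAN1, which serves cytidine acetylation, one of -0.02 and THG1, which adds a guanosine to the start of histidine tRNA, one of -0.22.

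None of the 3 deaminase genes passed, and their values lay on both sides of 0. Tad2 and Tad3 form the enzyme that turns the wobble adenosine into inosine, and their genes had the 2 highest log2 fold changes of all members. TAD2 was at 11.7 and 9.58 CPM in wild type and 13.9 and 11.7 CPM in the tDNA-less strain, with its nearest libraries almost equal. TAD3 was at 30.2 and 27.9 CPM in wild type and 32.3 and 33.9 CPM in the tDNA-less strain. Their fold changes were 0.28 ± 0.19 and 0.19 ± 0.11 (edgeR, adjusted p = 0.626 and 0.522), positive under all 15 other settings tried. TAD1, which deaminates an adenosine beside the anticodon of alanine tRNA, was at 14.5 and 16.1 CPM in wild type but at 9.78 and 14.5 CPM in the tDNA-less strain, so 1 tDNA-less library set its value of -0.33 ± 0.20 (edgeR, adjusted p = 0.577). It was -0.09 when tDNA-less replicate 1 was left out.

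**Figure D2:**
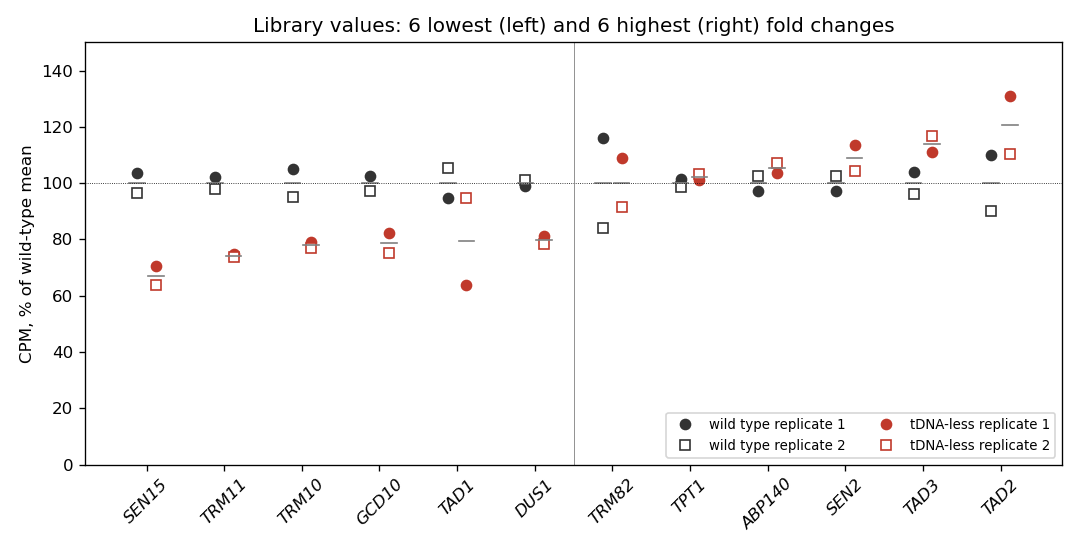
Level in each library, as CPM in percent of the wild-type mean, for the 6 members with the lowest and the 6 with the highest log2 fold change. Filled circles are replicate 1, open squares replicate 2, black wild type and red tDNA-less; grey lines are strain means. The tDNA-less libraries of TRM11, TRM10, GCD10, DUS1 and SEN15 lie below both wild-type libraries, those of TRM82 fall between its wild-type libraries, and those of TPT1 overlap with the wild type.

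None of the 6 splicing genes passed, and their log2 fold changes ran from -0.58 to 0.12. The endonuclease has catalytic subunits Sen2 and Sen34 and structural subunits Sen15 and Sen54. SEN15 (YMR059W, chrXIII:391099-391485) had the lowest fold change of all 41 members. It was at 11.0 and 10.2 CPM in wild type and 7.49 and 6.78 CPM in the tDNA-less strain, with no overlap. At this low count the error was wide, and the log2 fold change of -0.58 ± 0.21 did not pass (95% interval -1.04 to -0.11, edgeR adjusted p = 0.276).

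SEN2 had 20.7 and 21.8 CPM in wild type and 24.1 and 22.2 CPM in the tDNA-less strain, a log2 fold change of 0.12 ± 0.12. SEN34 was at 19.7 and 19.1 CPM against 17.0 and 18.1 CPM (-0.14 ± 0.13), and SEN54 at 13.9 and 12.6 CPM against 12.8 and 12.3 CPM (-0.08 ± 0.16). None of these 3 subunit genes passed. TRL1, the ligase, which also joins the HAC1 mRNA, had a value of -0.13, and TPT1, the phosphotransferase that finishes the splice, one of 0.03.

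Per length the 4 subunits were not at equal levels in wild type. SEN15 averaged 35.4 ± 0.528 TPM, SEN34 21.2 ± 0.530 TPM, SEN2 15.9 ± 1.39 TPM and SEN54 7.73 ± 0.151 TPM (SD, n = 2), the lowest of all members. The libraries of these 4 genes kept that order in wild type without overlap. In the tDNA-less strain SEN15 averaged 22.5 TPM and SEN34 17.7 TPM, again in the same order. The order of Sen transcripts is one of RNA levels, and protein was not measured.

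LOS1, the exportin of tRNA, was at 73.5 and 53.2 CPM in wild type and 65.2 and 53.7 CPM in the tDNA-less strain. The difference between replicates exceeded that between strains, with replicate 1 the higher in both (-0.08 ± 0.15, edgeR adjusted p = 0.891). CCA1, the nucleotidyltransferase that adds the CCA end, was at 37.1 and 32.9 CPM against 32.3 and 27.4 CPM. The strains did not overlap, but the gap between their nearest libraries was smaller than that between the replicates of either strain. The CCA1 value of -0.23 ± 0.12 did not pass (edgeR, adjusted p = 0.5).

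**Figure D3:**
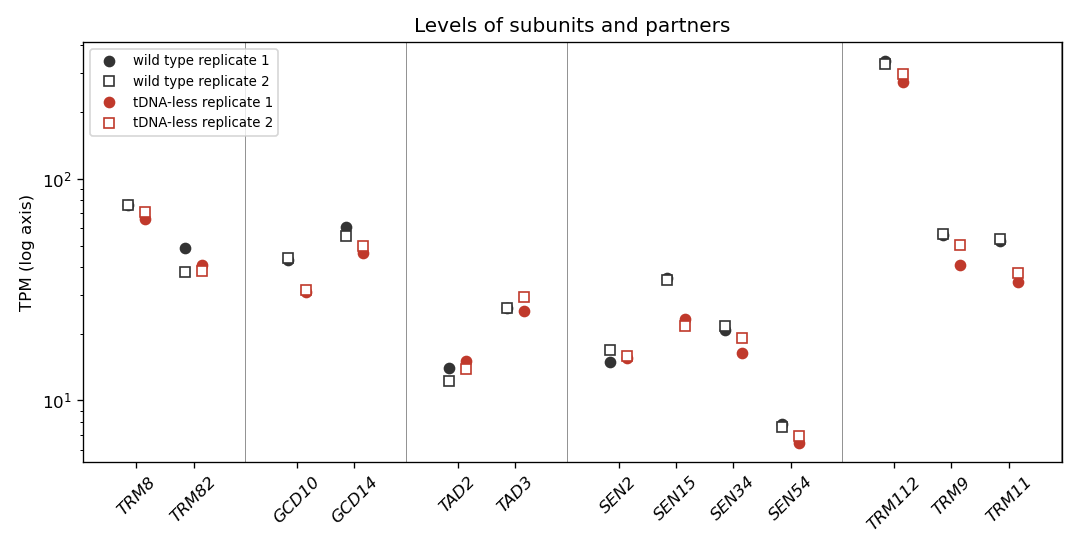
Levels per length (TPM, log axis) of genes whose products work together, in each library, with black for wild type, red for tDNA-less, filled circles for replicate 1 and open squares for replicate 2. TRM112 stands above its partners TRM9 and TRM11 in every library, and SEN54 is the lowest of the 4 endonuclease subunits.

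Across the 41 genes the wild-type level had a median of 35.4 TPM, with 31 of them above the median of 17.6 TPM over all reading frames. The lowest after SEN54 were TAD1 (10.7 TPM) and PUS6 (11.8 TPM), and the highest after TRM112 was TRM8 (76.0 TPM). TRM8 and SMM1 (67.0 TPM) did not differ beyond the spread of SMM1, which had an SD of 10.2 TPM. All 41 matched the R64 annotation with the same coding length, none shared a 31-base word with another annotated reading frame, and 1, TAD3, overlapped an annotated gene, by 4 bases.

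Few calls were also made among related genes. Of 103 other genes in 11 lists of tRNA maturation, turnover, transcription and charging and of ribosomal RNA processing, 0 were called by edgeR and 0 by limma-voom, and 1 by DESeq2, CDC60, the leucyl-tRNA synthetase (log2 fold change -0.30, edgeR adjusted p = 0.13). With an offset for GC content edgeR called 3, all lower, while its calls over all reading frames rose from 93 to 249. At an unadjusted p under 0.05 edgeR had 12, all lower, where 5.64% of all reading frames were lower at that level and 11.8% differed in either direction. The fold change was negative in 87 of the 103, with a median of -0.10. All 8 Elongator and associated genes, which build wobble uridine side chains with TRM9, were negative (median -0.16), the lowest being IKI1 at -0.29. The 5 genes of wobble thiolation had a median of -0.06, the 6 genes for threonylcarbamoyl adenosine -0.12, the 10 other modification factors -0.05 and the 12 genes of RNase P and end processing -0.06. The 4 other export factors were nearly level, from -0.03 for MEX67 to 0.03 for MSN5, and the 8 turnover genes had a median of -0.11. Of the 12 genes for RNA polymerase III subunits, 11 were negative (median -0.17), with RPC34 lowest at -0.32. The 21 cytosolic aminoacyl-tRNA synthetases had a median of -0.05, and the 15 genes for ribosomal RNA processing, all negative, one of -0.15. Whether these lists differ from the 41 genes was not tested.

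Many of these genes carry the PAC sequence in front of their start codon. PAC and RRPE are short motifs known from promoters of yeast ribosome biogenesis genes. The letters GATGAG (PAC), on either strand within 250 bases before the start codon, were found in 24 of the 41 members (58.5%) and in 17.0% of 5990 reading frames with such a window. AAAAATTTT (RRPE), on either strand and at no overlap with PAC in these genes, was found in 8 members (19.5%) and in 6.76% of all. TGACTC, the core of sites for the amino acid regulator Gcn4, was found in 0 members and in 6.26% of all. The windows of 3 members are shown from 250 to 101 bases before the start codon in R64, 5′ to 3′ on the gene's strand, with PAC and RRPE in capitals: GCD10 because it held the most PAC matches, DUS1 because it has a single one, and TRM11 because it passed the test and has none.
GCD10: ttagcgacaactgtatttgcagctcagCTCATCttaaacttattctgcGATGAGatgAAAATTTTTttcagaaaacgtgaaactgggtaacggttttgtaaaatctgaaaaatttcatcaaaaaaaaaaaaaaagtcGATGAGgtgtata
DUS1: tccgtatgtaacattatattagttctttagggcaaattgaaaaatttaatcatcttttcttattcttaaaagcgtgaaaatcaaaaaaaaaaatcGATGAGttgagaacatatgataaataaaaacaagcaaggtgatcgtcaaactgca
TRM11: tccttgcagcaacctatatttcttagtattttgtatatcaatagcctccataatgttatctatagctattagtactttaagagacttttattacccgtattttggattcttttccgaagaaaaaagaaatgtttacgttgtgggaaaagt
They lie at chrXIV:510313-510462 on the minus strand for GCD10, chrXIII:108556-108705 on the plus strand for DUS1 and chrXV:86858-87007 on the minus strand for TRM11. The upstream neighbour is transcribed divergently in 23 of the 41 members, so part of these windows also lies before another gene, as for GCD10 and NOP2, 327 bases apart.

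Among the members, the median was nearly the same with and without the PAC letters. The median log2 fold change was -0.13 in the 24 members with PAC, of which 20 were negative, and -0.13 in the 17 without, of which 15 were negative. Over all promoters of tested reading frames it was -0.06 in the 966 with PAC, 63.4% of them negative, and 0.02 in the 4765 without, 45.9% of them negative. These are descriptions of letters in a window and of the values beside them.

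**Figure D4:**
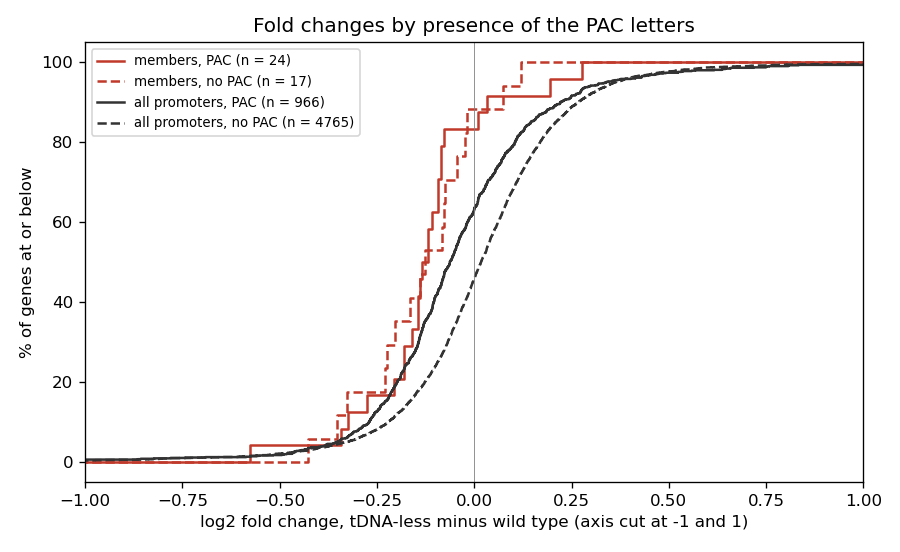
Cumulative share of genes (vertical axis, %) by log2 fold change (horizontal axis, shown from -1 to 1) for members with and without the PAC letters (red) and for all promoters with and without them (black); solid lines have PAC and broken lines lack it. The red lines run close together around a median of -0.13, and the black line with PAC lies left of the one without.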

How the data were processed

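RNA of 2 wild-type and 2 tDNA-less cultures was sequenced from directional libraries, per the labels' protocols. The deposited values are estimated counts and TPM per reading frame, made with kallisto and build sacCer3, per the submitters' processing notes; kallisto's version, index and strand setting are not given there or in the labels. The deposited TPM values divide the estimated counts by effective length and then by the library's sum of these quotients. Positions, names and sequences come from RefSeq's R64 assembly, the same build, which is not W-303. Estimated counts were rounded, filtered with filterByExpr (minimum 10 counts), scaled by TMM and tested by quasi-likelihood in edgeR 4.0.16 (R 4.3.3), with Benjamini-Hochberg adjustment over all reading frames tested. Standard errors are the absolute log2 fold change over the square root of F, and intervals use the fitted degrees of freedom. The biological coefficient of variation was 9.82%. Libraries of a strain differed by more than counting noise (chi-square per degree of freedom 62.6 and 46.1). The procedure was run on simulated counts with added changes of 1.5-fold or more and 1 spread between replicates for all reading frames. The largest change of a member was 1.49-fold (SEN15), so that run does not show how changes of the members' size are called. The alternatives used limma 3.58.1, DESeq2 1.42.0, a GC offset, a replicate block and left-out libraries. The members, lists and motifs were chosen with earlier results of these data known. Library values are given for called members, the 6 highest and 6 lowest fold changes and the subunits of complexes; other library values were chosen after they were seen.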

Additional observations from a re-analysis of the deposited data

How the results depend on the processing

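Limits first: 2 libraries per strain, few counts for SEN15, SEN54, TAD1, TAD2 and TPT1, and TRM11 the only call among the 41 genes. With DESeq2's size factors, no filter, a minimum mean of 50 counts, DESeq2, limma-voom or without the 4 dominant reading frames, 1 member was called, TRM11 each time. On the log2(TPM + 1) and log2(TPM + 0.1) scales 0 members were called (TRM11 adjusted p = 0.177 and 0.193), 52 and 39 reading frames were, and the members' median was -0.24 and -0.25, with the median of all reading frames at -0.11 and -0.12. The replicate number as a block gave 4 called members (TRM10, TRM11, GCD10 and DUS1, all lower), 2 other pathway genes and 282 reading frames. The 2 strains' replicate differences correlated at 0.316 over 5034 reading frames and at 0.506 over the 41 members. Replicate 1 was the higher in both strains for 20 members and the lower in both for 7. Nothing in the labels says that a number marks a shared batch. A GC offset gave 5 members (SMM1 in addition), 3 pathway genes and 249 reading frames, and the block with the GC offset 5, 9 and 520. The main fit, with neither block nor offset, had called 93 reading frames, so calls rose over all reading frames too. Pathway genes were 1 in DESeq2. Leaving out 1 library gave 0 members, 0 pathway genes and from 21 to 91 reading frames (21 and 30 without tDNA-less replicates 1 and 2), and a members' median from -0.16 to -0.10; the lone library of a strain was then assumed to vary like the other strain's. Genes near 0 changed sign without passing. On the 2 TPM scales TRM82 gave -0.116 and -0.118, ABP140 -0.0629 and -0.0639, SEN2 -0.00729 and -0.00756 and TPT1 -0.0820 and -0.0865. TRM82 gave -0.0090 with the GC offset and -0.0074 with block and offset. Over the left-out libraries TRM82 ranged from -0.214 to 0.245, TRM8 from -0.0720 to 0.0159, PUS6 from -0.173 to 0.00621, TAN1 from -0.150 to 0.105, LOS1 from -0.309 to 0.150 and DUS4 from -0.158 to 0.0851.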
